A study of Rattus norvegicus with 29 samples.

Results

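In primary rat renal proximal tubule epithelial cells, 143 of 28420 transcripts lay on opposite sides of control after 24 h with gentamicin and after 24 h with TCDD, while acetaminophen left them near control. Of these, 116 were higher with gentamicin and lower with TCDD, called gentamicin-high here. The other 27 were lower with gentamicin and higher with TCDD, called TCDD-high. The members were chosen on measured values. For each compound, L is log2 of the treated group's mean TPM plus 1 over the control group's mean TPM plus 1. TPM is a level scaled to transcript length and then to the library's sum of such length-scaled levels. A transcript had to have a mean of 1 to 500 TPM over the 5 control libraries, an L of at least 0.8 in size for gentamicin and for TCDD with opposite signs, and an L of at most 0.5 in size for acetaminophen, all at 24 h. Up to 200 transcripts were to be taken by the gap between gentamicin and TCDD, and all were kept because fewer qualified.

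The cells were treated with gentamicin, TCDD (2,3,7,8-Tetrachlorodibenzodioxin), acetaminophen or trichloroethylene, or served as control, for 24 h or for 6 h. RNA sequencing gave 29 libraries in 10 groups of 3, except control at 6 h with 2. The sources used here give no doses, vehicles or origin of the replicates, so p-values measure the spread between these libraries, which may be technical. No genetic change is named in the labels for any group. The files pair no transcript with a gene and 0 identifiers were found in the reference tables, so members are given by identifier, no sequence is shown, and the labelled cell type was not checked against its markers. In bulk RNA, fewer cells of a type and less RNA per cell cannot be told apart.

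Proximal tubule cells recover most of what the kidney filters, by transporters and by endocytosis at their apical surface. Gentamicin, an aminoglycoside antibiotic, enters these cells through the endocytic receptors megalin and cubilin and accumulates in lysosomes, and the proximal tubule is the site of its kidney toxicity. TCDD, a dioxin, binds the aryl hydrocarbon receptor, a transcription factor that moves to the nucleus when bound and induces enzymes of foreign-compound metabolism. Acetaminophen is an analgesic and trichloroethylene an industrial solvent; both are made reactive by metabolism.

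Opposite values were the less frequent arrangement. Among 13730 transcripts with a control mean in the range, 2454 had an L of at least 0.8 in size for both compounds. In 2138 of them the signs were the same, with 1696 lower and 442 higher with both, and in 316 the signs were opposite. The signs share the same control libraries, so this count describes the selection and is not a test. The 316 comprised 235 higher with gentamicin and 81 lower with it. The acetaminophen limit removed 119 of the 235 (76 higher and 43 lower with acetaminophen) and 54 of the 81 (39 higher and 15 lower).

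**Figure D1:**
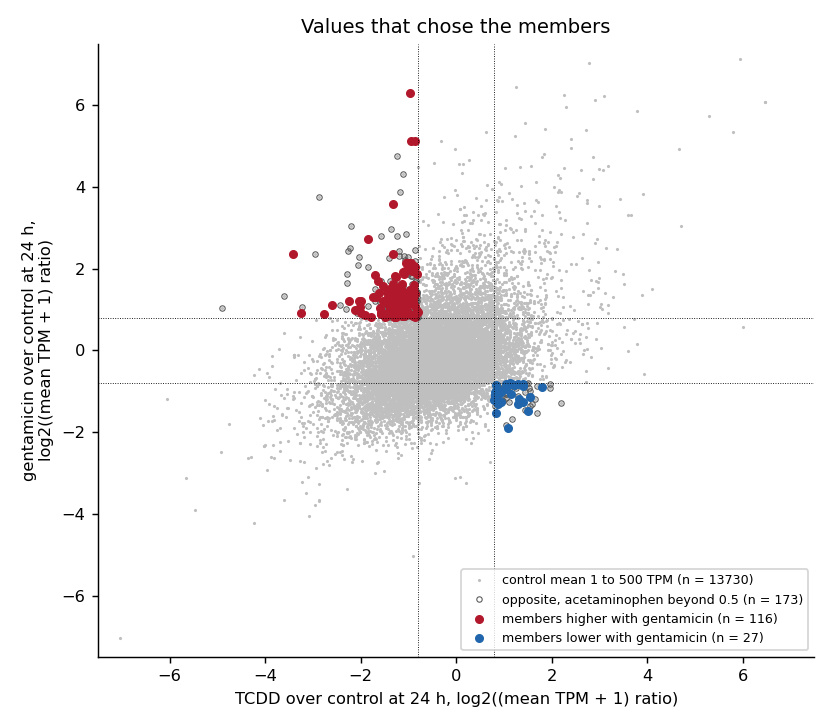
Gentamicin over control (vertical) against TCDD over control (horizontal) at 24 h, as log2 of mean TPM plus 1, for 13730 transcripts; dotted lines mark 0.8 in size. The 116 gentamicin-high members fill the upper left corner and the 27 TCDD-high members the lower right; open circles are the 173 transcripts beyond the acetaminophen limit.

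Many members lay close to a limit. The member nearest to the gentamicin limit had an L of 0.8087 in size and the nearest transcript outside 0.7999; for TCDD these were 0.8004 and 0.7967, and for acetaminophen 0.4949 and 0.5007. The lowest control mean of a member was 1.07 TPM, and the nearest transcript below the limit had 0.840 TPM. A further 8 transcripts met the other conditions with a control mean above 500 TPM, and 5 with one below 1 TPM. The smaller of the L values of gentamicin and TCDD was under 1 in size for 61 gentamicin-high and 20 TCDD-high members, and at least 1.5 for 5 and 0.

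The gentamicin-high transcripts had a median L of 1.15 with gentamicin (0.81 to 6.30) and of -1.19 with TCDD (-3.42 to -0.81) at 24 h. Over all 13730 transcripts in the control range the medians were -0.22 and -0.40. The typical level of these transcripts, as the median TPM over the 116 in each library and its mean over libraries, was 56.1 TPM with gentamicin at 24 h (49.1 to 61.8, n = 3) and 8.49 TPM with TCDD at 24 h (5.89 to 10.7, n = 3), against 21.3 TPM in control at 24 h (18.7 to 23.5, n = 3). Gentamicin at 6 h stood at 25.6 TPM (24.98 to 26.4). The remaining groups lay between 17.4 TPM in control at 6 h and 21.1 TPM with acetaminophen or trichloroethylene at 24 h.

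The TCDD-high transcripts had a median L of -1.05 with gentamicin (-1.91 to -0.81) and of 1.10 with TCDD (0.80 to 1.79) at 24 h. They were the less abundant set. Their typical level was 2.59 TPM with gentamicin at 24 h (2.38 to 2.78, n = 3) and 19.7 TPM with TCDD at 24 h (15.3 to 22.8, n = 3), against 7.69 TPM in control at 24 h. Trichloroethylene at 24 h stood second highest at 13.6 TPM (13.5 to 13.8). The 6 other groups lay between 6.37 TPM with acetaminophen at 6 h and 8.18 TPM with TCDD at 6 h.

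At 24 h the libraries of the 3 groups were mostly apart. For 106 of the 116 gentamicin-high members every gentamicin library was above every control library, and every control library was above every TCDD library; 8.0% of the transcripts in the control range had this arrangement. For 24 of the 27 TCDD-high members the order was reversed without overlap, against 4.6% in the control range. Both counts come from the values that chose the members, so nothing is read from them.

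**Figure D2:**
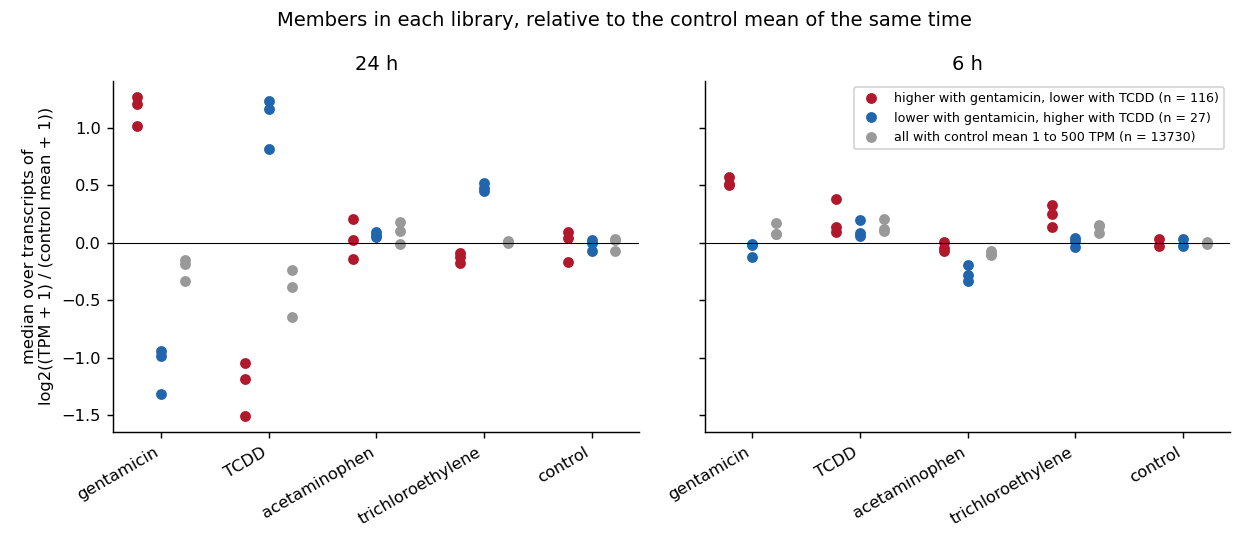
Median over the members of log2 of TPM plus 1 in a library over the control mean plus 1 of the same time, each point 1 library, for gentamicin-high (red), TCDD-high (blue) and all 13730 transcripts in the control range (grey). At 24 h the red points lie between 1.02 and 1.27 with gentamicin and between -1.51 and -1.05 with TCDD, and the blue points lie between -1.32 and -0.94 and between 0.81 and 1.23; at 6 h the red points with gentamicin lie between 0.50 and 0.57.

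The 4 members shown in full are those with the largest smaller L, 2 in each direction, among members with at least 10 estimated counts in every gentamicin, TCDD and control library at 24 h. ENSRNOT00000038697, 1854 bases long and gentamicin-high, had 208, 241 and 262 TPM with gentamicin at 24 h and 3.87, 2.89 and 3.32 TPM with TCDD at 24 h, against 44.3, 43.0 and 49.5 TPM in control at 24 h. The 3 groups did not overlap, and the TCDD values rest on 45 to 60 estimated counts per library. At 6 h it had 91.0, 76.4 and 64.5 TPM with gentamicin, against 38.1 and 33.1 TPM in control at 6 h. TCDD at 6 h gave 35.7, 33.8 and 33.5 TPM, which overlapped the 6 h control. This transcript rose by 1.00 ± 0.16 in log2 with gentamicin at 6 h (fitted change ± SE; edgeR adjusted p = 5.7e-05), and was higher with gentamicin than with TCDD at 6 h by 1.20 ± 0.14 (edgeR adjusted p = 6.5e-07). With TCDD at 6 h its fitted log2 change from control was -0.20 ± 0.16 (edgeR adjusted p = 0.75). With trichloroethylene at 24 h it had 22.7, 21.4 and 26.2 TPM, below every 24 h control library, a fitted log2 difference from control of -1.004 ± 0.14 (edgeR adjusted p = 3.6e-06).

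ENSRNOT00000001099, 1097 bases long and also gentamicin-high, had 459, 491 and 553 TPM with gentamicin at 24 h and 21.5, 15.3 and 23.4 TPM with TCDD at 24 h, against 78.3, 77.2 and 68.5 TPM in control at 24 h. Again the groups did not overlap. At 6 h the gentamicin libraries had 363, 291 and 189 TPM, a wide spread that still lay above the 6 h control libraries at 89.9 and 95.0 TPM. The fitted log2 change was 1.503 ± 0.22 (edgeR adjusted p = 4.7e-05), and it was not called when the 2 groups were fitted alone (edgeR adjusted p = 0.0777). Against TCDD at 6 h, which gave 102, 98.0 and 95.2 TPM, the log2 difference was 1.55 ± 0.20 (edgeR adjusted p = 3.8e-06). With trichloroethylene at 24 h it moved the other way from ENSRNOT00000038697, with 148, 248 and 180 TPM and a log2 change of 1.35 ± 0.20 from control (edgeR adjusted p = 8.3e-06). These 2 transcripts, alike with gentamicin at 6 h, thus changed in opposite directions with the solvent.

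ENSRNOT00000021742, 2733 bases long and TCDD-high, had 6.07, 6.78 and 4.35 TPM with gentamicin at 24 h and 56.8, 38.5 and 62.4 TPM with TCDD at 24 h, against 19.9, 18.7 and 15.3 TPM in control at 24 h. No group overlapped another. At 6 h the same transcript had 11.5, 11.3 and 13.6 TPM with gentamicin and 12.03, 10.9 and 17.4 TPM with TCDD, against 10.8 and 11.4 TPM in control. Here the 6 h groups overlapped: the log2 difference between gentamicin and TCDD was -0.12 ± 0.15 (edgeR adjusted p = 0.67). Trichloroethylene at 24 h gave 14.7, 17.6 and 13.5 TPM, overlapping the 24 h control, with a log2 change of -0.27 ± 0.14 (edgeR adjusted p = 0.13).

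ENSRNOT00000025711, 2277 bases long and TCDD-high, had 2.38, 2.49 and 2.43 TPM with gentamicin at 24 h and 21.3, 17.8 and 23.6 TPM with TCDD at 24 h, against 7.70, 6.41 and 7.78 TPM in control at 24 h. The gentamicin values rest on 36 to 41 estimated counts per library. At 6 h it had 6.92, 6.12 and 6.47 TPM with gentamicin and 7.54, 8.93 and 6.15 TPM with TCDD, against 6.50 and 6.44 TPM in control, and these groups overlapped. It rose with trichloroethylene at 24 h, with 13.8, 13.5 and 15.3 TPM, all above the 24 h control libraries, by a log2 change of 0.92 ± 0.12 (edgeR adjusted p = 2e-06). It also rose with acetaminophen at 6 h by 0.54 ± 0.14 (edgeR adjusted p = 0.0025), and averaged 7.98 ± 0.48 TPM with acetaminophen at 24 h against 7.30 ± 0.77 TPM in control (SD, n = 3 each).

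**Figure D3:**
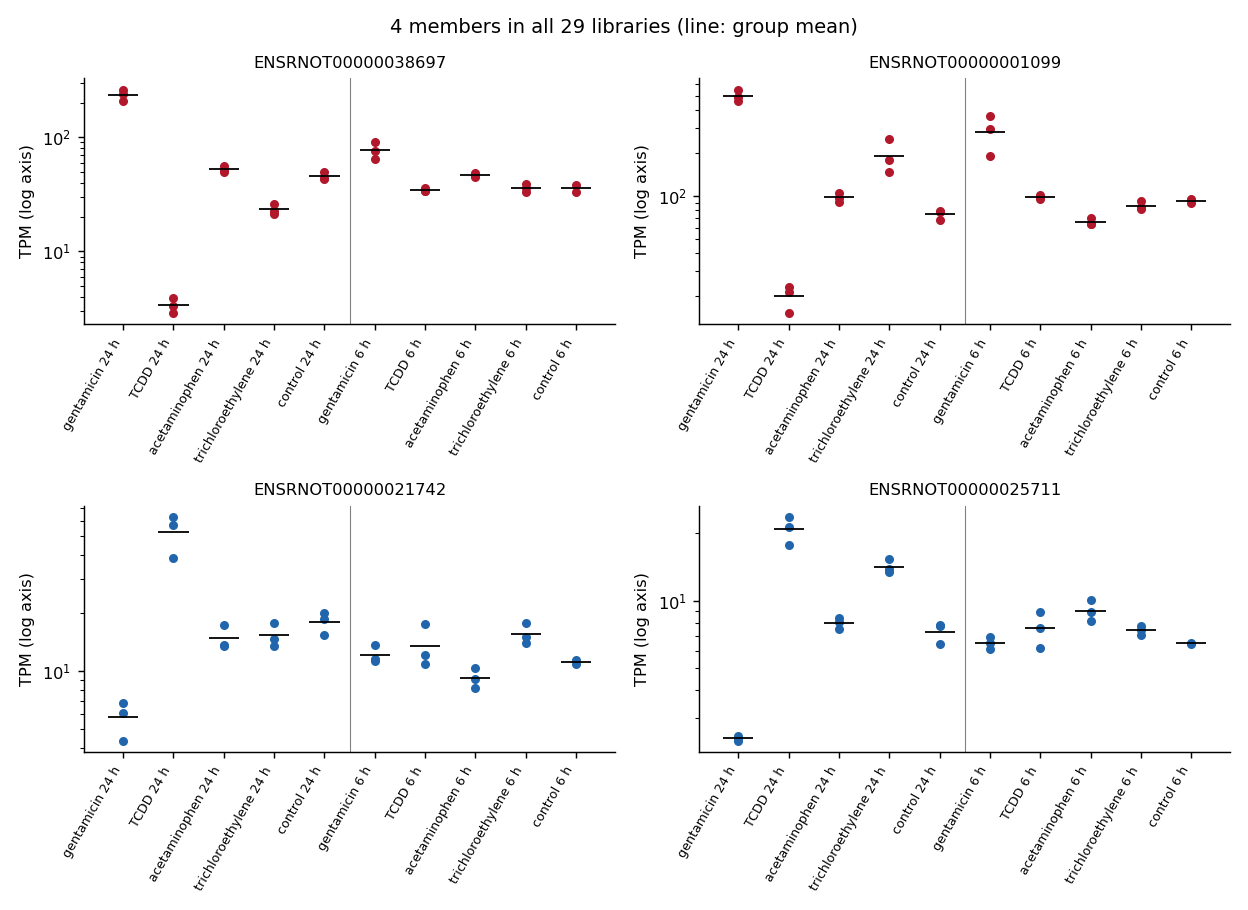
TPM (log axis) of the 4 members in all 29 libraries, each point 1 library and each line a group mean, with 24 h groups left of the vertical line and 6 h groups right of it. The gentamicin points of both upper panels stand above the control points at 6 h too, while in both lower panels the 6 h gentamicin points lie between 6.12 and 13.6 TPM, close to control.

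The members with the widest gaps, picked out after their values were seen, were short transcripts. The widest gap of all was 7.26, in a gentamicin-high transcript of 389 bases with 5650, 5970 and 7060 TPM with gentamicin at 24 h and 50.7, 26.9 and 41.7 TPM with TCDD at 24 h, against 91.7, 102 and 41.2 TPM in control at 24 h. Its gap came mostly from gentamicin, with an L of 6.30, and its TCDD and control libraries overlapped at 24 h. At 6 h it had 1840, 1690 and 1720 TPM with gentamicin, against 89.1 and 82.1 TPM in control, a rise of 4.30 ± 0.22 in log2 (edgeR adjusted p = 2.7e-12). With TCDD at 6 h it had 94.8, 98.1 and 118 TPM. The transcripts with the next widest gaps, 693 and 645 bases long, also rose with gentamicin at 6 h, by log2 changes of 3.08 ± 0.42 and 2.92 ± 0.40 (edgeR adjusted p = 1.7e-05 and 1.1e-05). Their TCDD side rested on few estimated counts. At 24 h the 693-base transcript had 18, 12 and 11 with TCDD, against 26, 16 and 22 in control. The 645-base transcript had 3, 2 and 5 with TCDD, against 8, 5 and 7 in control. All 3 rose with acetaminophen at 6 h as well, by log2 changes of 1.43, 1.89 and 1.97 (edgeR adjusted p = 4.4e-06, 0.00096 and 0.00028).

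Among TCDD-high members the widest gap rested on few counts. It was a 600-base transcript with 0 estimated counts in every gentamicin library at 24 h and 22, 27 and 24 counts in the TCDD libraries at 24 h, against 14, 3 and 1 counts in the 24 h controls, so its change is uncertain. The largest rise with TCDD belonged to a 2024-base transcript with 18.5, 15.1 and 15.7 TPM with gentamicin at 24 h and 120, 92.1 and 119 TPM with TCDD at 24 h, against 30.6, 28.1 and 35.2 TPM in control. This transcript also had 85.6, 96.5 and 90.5 TPM with trichloroethylene at 24 h, against 20.7, 23.4 and 21.5 TPM with trichloroethylene at 6 h, a log2 change of 1.99 ± 0.11 (edgeR adjusted p = 8e-13). The most abundant TCDD-high member, 1316 bases long, had 184, 195 and 152 TPM with gentamicin and 632, 599 and 693 TPM with TCDD, against 345, 357 and 384 TPM in control, all at 24 h. For that member trichloroethylene at 24 h gave 323, 280 and 338 TPM, and its log2 change of -0.24 ± 0.16 from control was not called (edgeR adjusted p = 0.25).

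The 6 h comparisons used none of the treated libraries that chose the members; the 6 h controls entered only the mean of 1 to 500 TPM. After the filter on low counts, 115 gentamicin-high and 25 TCDD-high members were tested among 15990 transcripts, and a call is an edgeR adjusted p under 0.05 over all of them. With gentamicin at 6 h against control at 6 h, 54 of the 115 gentamicin-high members (47.0%) were called higher and 1 was called lower. Over all transcripts tested, 8.34% were called higher and 4.88% lower. The median log2 change of the 115 was 0.46, beside 0.01 over all transcripts tested, and 106 of the 115 had a change above 0. The number called in either direction, 55, was 29 without control replicate 2 and 35 without control replicate 3, which leave 1 control library. Of the 25 TCDD-high members, 0 were called higher and 2 lower, with a median of -0.13. On the scale of the rule, the gentamicin-high transcripts had a median L of 0.53 with gentamicin at 6 h, beside 0.11 in the control range, and the TCDD-high transcripts one of -0.01. Across the 116, L at 6 h and L at 24 h had a Pearson r of 0.75 and a Spearman rho of 0.40 with gentamicin, across transcripts that share libraries and are not replicates.

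With TCDD at 6 h against control at 6 h, 0 gentamicin-high and 0 TCDD-high members were called by edgeR, beside 0.0% higher and 0.0% lower of all transcripts tested. DESeq2 and limma also called 0 members. At an unadjusted edgeR p under 0.05 there were 9 of 115 gentamicin-high and 2 of 25 TCDD-high members, beside 1124 of 15990 transcripts. The median L of the gentamicin-high members with TCDD at 6 h was 0.21, beside 0.15 in the control range, and of the TCDD-high members 0.12. Since no transcript at all was called, these counts say nothing particular to the members. Across the 116, L with TCDD at 6 h and at 24 h had a Pearson r of -0.05 and a Spearman rho of 0.05.

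Gentamicin and TCDD were also compared directly at 6 h, with no control library involved but with the same gentamicin libraries as above. Gentamicin at 6 h stood above TCDD at 6 h in 51 called gentamicin-high members (44.3%) and below it in 1, beside 8.84% and 7.24% of all transcripts tested. The median log2 difference was 0.37, and 0.64 among the 51. Among TCDD-high members 0 were called higher and 2 lower, with a median of -0.20. These 2 had a median log2 difference of -0.43.

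**Figure D4:**
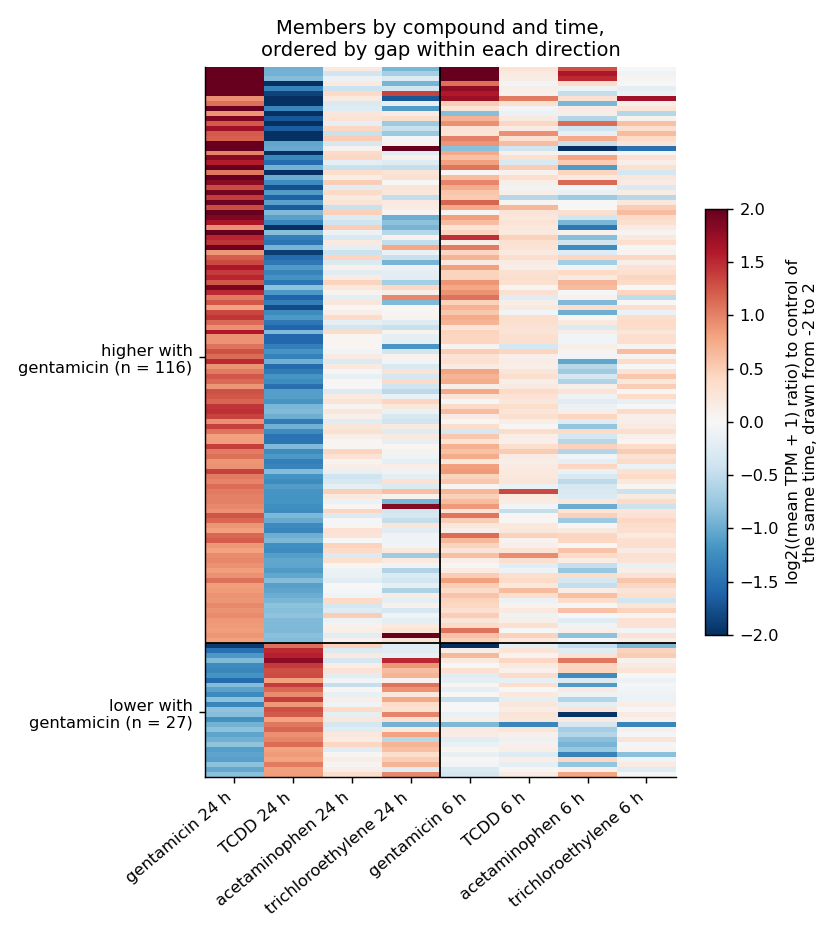
L for each of the 143 members (rows, ordered by gap within each direction) with each compound at 24 h and at 6 h (columns), each against the control of its own time, with colours cut at 2 in size. The first 2 columns and the acetaminophen 24 h column chose the rows. The gentamicin 6 h column is above 0 in 112 of the 116 gentamicin-high rows and in 11 of the 27 TCDD-high rows. In the control range 8934 of 13730 transcripts were above 0.

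Trichloroethylene chose no member. At 24 h most TCDD-high members tested were called higher with it, and gentamicin-high members were called in both directions. Of the 25 TCDD-high members tested, 14 (56.0%) were called higher and 0 lower against control at 24 h, where 20.7% of all transcripts tested were called higher and 19.9% lower. Their median log2 change was 0.61, and 0.83 among the 14. Of the 115 gentamicin-high members 8 (6.96%) were called higher, 32 (27.8%) lower and 75 not at all, with a median of -0.18. With fragment length as a covariate these calls were 14 higher and 22 lower, and those of the TCDD-high set 12 higher and 1 lower. Shares over all transcripts are not given for that fit, so its counts are not read as particular to the members. The 24 h control libraries also entered the rule, so the comparison with trichloroethylene at 6 h, which shares no library with it, was set beside this one; both use the same trichloroethylene libraries at 24 h. Trichloroethylene at 24 h over 6 h gave 16 of 25 TCDD-high members (64.0%) called higher and 0 lower, where 24.5% of all transcripts tested were called higher and 23.1% lower; the median was 0.57. In gentamicin-high members 16 (13.9%) were called higher and 37 (32.2%) lower, with a median of -0.16. With the covariate these were 22 and 28, and in the TCDD-high set 13 and 1, again without shares over all transcripts. Time itself cannot be told apart from the compound there: L of control at 24 h over control at 6 h had a median of 0.15 in TCDD-high and 0.27 in gentamicin-high members, beside 0.16 in the control range.

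The trichloroethylene calls were also counted by the early gentamicin calls, as a description. Of the 54 gentamicin-high members called higher with gentamicin at 6 h, 8 (14.8%) were called higher and 12 (22.2%) lower with trichloroethylene at 24 h. Among all 1333 transcripts called higher with gentamicin at 6 h these shares were 42.2% and 14.1%. Of the 60 members not called with gentamicin at 6 h, 0 were called higher and 19 (31.7%) lower with trichloroethylene, beside 18.9% and 19.7% of the 13877 transcripts not called.

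At 6 h trichloroethylene gave 0 called members in either set by edgeR, beside 0.0% higher and 0.0% lower of all transcripts tested. DESeq2 and limma also gave 0. A fit of the 2 groups alone gave 5 gentamicin-high members, for which no share over all transcripts is given. At an unadjusted edgeR p under 0.05 there were 22 of 115 gentamicin-high and 2 of 25 TCDD-high members, beside 2070 of 15990 transcripts. The median L was 0.25 for gentamicin-high and 0.01 for TCDD-high members, beside 0.13 in the control range.

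**Figure D5:**
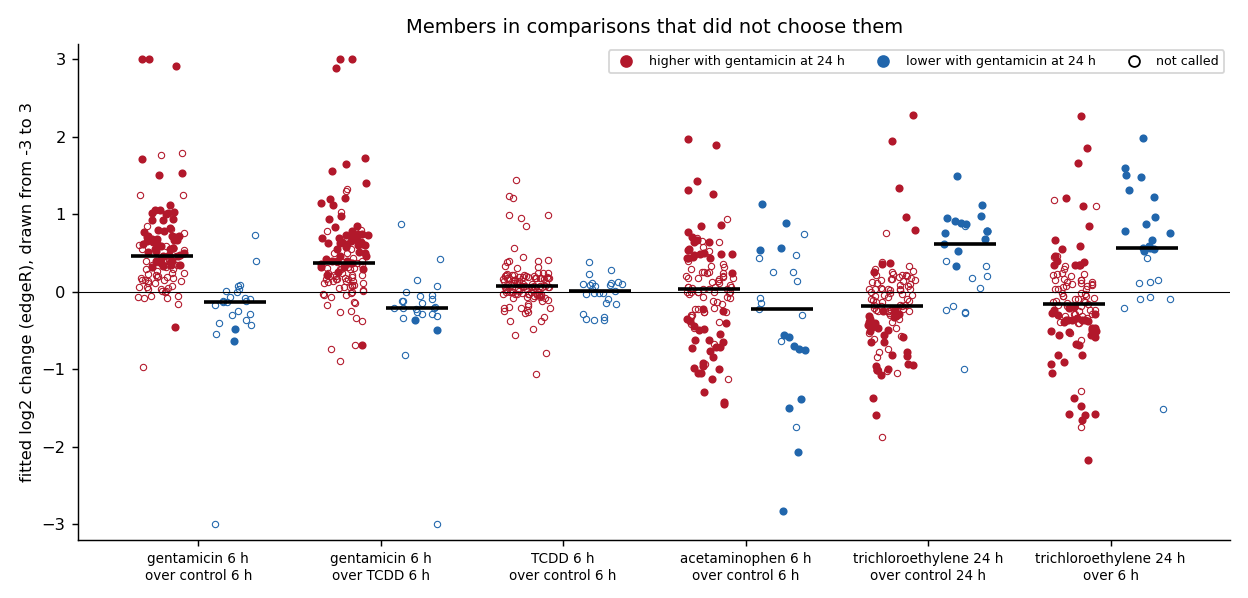
Fitted log2 change (edgeR) of each tested member in 6 comparisons outside the rule, with gentamicin-high in red (n = 115) and TCDD-high in blue (n = 25), called members filled, values drawn at the edge beyond 3 in size, and bars at the medians. The red median is 0.46 for gentamicin over control at 6 h and -0.18 for trichloroethylene over control at 24 h; the blue medians are -0.13 and 0.61.

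Acetaminophen was held near control at 24 h by the rule, but not at 6 h. Against control at 6 h, 24 gentamicin-high members (20.9%) were called higher and 27 (23.5%) lower, close to the 24.2% and 24.5% of all transcripts tested. Among TCDD-high members 4 (16.0%) were called higher and 9 (36.0%) lower, with a median log2 change of -0.22. The largest fall in L was in a TCDD-high transcript of 1584 bases, picked out after its values were seen. It had 6.58, 5.97 and 6.56 TPM with acetaminophen at 6 h, against 26.8 and 28.9 TPM in control at 6 h, a fitted log2 change of -2.07 ± 0.11 (edgeR adjusted p = 1.1e-13). With acetaminophen at 24 h the same transcript had 23.5, 24.6 and 25.8 TPM, against 25.3, 32.4 and 26.2 TPM in control. It was 1 of the 2 TCDD-high members called lower with gentamicin than with TCDD at 6 h, by -0.37 ± 0.09 (edgeR adjusted p = 0.0054), and it rose with trichloroethylene at 24 h by 0.97 ± 0.09 (edgeR adjusted p = 3.4e-09).

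The rule was also run on fewer replicates. All 3 replicate numbers had chosen the members, so this describes the rule and is no test of them. Transcripts were chosen anew from 2 of the 3 replicate numbers of gentamicin, TCDD and acetaminophen at 24 h and of control, and read in the third. With replicate 1 left out, 113 gentamicin-high transcripts were chosen, and in replicate 1 both signs were kept by 109 and both L values reached 0.8 by 79. With replicate 2 left out these numbers were 85, 81 and 62, and with replicate 3 left out 150, 134 and 43. In the control range 1.75%, 3.51% and 1.14% of transcripts reached both in the replicate read. For TCDD-high transcripts 30, 42 and 25 were chosen, 26, 36 and 23 kept both signs, and 10, 12 and 12 reached 0.8 for both, beside 0.548%, 0.365% and 1.35%. The medians in replicate 3 were 1.24 with gentamicin and -0.63 with TCDD for gentamicin-high transcripts, so the TCDD side was the smaller one there.

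The sets differed in length and level, which the rule did not use beyond its wide limits on level. Gentamicin-high transcripts had a median length of 2593 bases (177 to 10168) and TCDD-high ones 1584 bases (474 to 3096), beside 1956 bases in the control range. Transcripts of at least 4000 bases made up 19.0% of the gentamicin-high members and none of the 27 TCDD-high ones, beside 13.3%. A control mean of 1 to 10 TPM was found in 21.6% of gentamicin-high and 55.6% of TCDD-high members, beside 35.9%. The longest member, of 10168 bases, had 68.0, 68.7 and 56.3 TPM with gentamicin and 18.1, 11.0 and 21.1 TPM with TCDD, against 37.8, 36.3 and 28.5 TPM in control, all at 24 h.

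Length moved with the TCDD values over all transcripts. In the control range the median L with TCDD at 24 h was -0.41 below 1000 bases, -0.19 from 1000 to 2000, -0.39 from 2000 to 4000 and -0.89 at 4000 bases or more, while with gentamicin the medians ran only between -0.31 and -0.19. The TCDD libraries at 24 h had estimated fragments of 230 to 238 bases, beside 259 to 265 with gentamicin, 233 to 275 with acetaminophen, 248 to 259 with trichloroethylene and 270 to 289 in control. The part of RNA quality in the members' TCDD values was not tested. With fragment length as a covariate in the edgeR fit, an alternative chosen after seeing the data, 111 of 115 gentamicin-high members kept opposite fitted signs at 24 h and 51 had both fitted changes of at least 0.8, against 115 and 76 without it. All 25 TCDD-high members tested kept opposite signs, with 20 against 19 at 0.8 or more. Without the covariate, the fitted acetaminophen change at 24 h was within 0.5 in size for 102 of the 115 and 22 of the 25.

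The scale moved the counts as well. Rescaling by TMM factors shifted the median L with TCDD over the control range to -0.09, beside -0.40 in TPM, and with gentamicin to -0.10, beside -0.22. All 116 and all 27 members kept their opposite signs on that scale, where the medians were 1.27 with gentamicin and -0.92 with TCDD in the gentamicin-high set, and -0.96 and 1.40 in the TCDD-high set. The same 24 h values chose the members at a limit of 0.8, beyond these shifts. The kept signs were therefore largely fixed in advance and are not a test. Applied on that scale, the rule gave 94 gentamicin-high transcripts, 66 of them shared with the 116, and 58 TCDD-high ones, 18 of them shared with the 27. Of the 116, 42 had a TCDD value under 0.8 in size there and 11 an acetaminophen value over 0.5. The split between the directions therefore depended on the scale.

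Depth limited the rarer members. At least 10 estimated counts in each of the 9 gentamicin, TCDD and control libraries at 24 h were present for 98 of the 116 gentamicin-high and 19 of the 27 TCDD-high members, and 13 and 4 had a 0 in at least 1 of them. Estimated counts more than 1e-06 from a whole number, which arise where reads are shared between transcripts, occurred in 50 gentamicin-high (43.1%) and 10 TCDD-high members (37.0%), beside 38.7% in the control range. Levels of these members are uncertain where the authors' tool divided shared reads. A gentamicin-high transcript of 2397 bases, picked out after its values were seen, had 23.6, 69.7 and 24.9 TPM with gentamicin at 24 h. It had 2.01, 1.46 and 0.272 TPM with TCDD at 24 h, against 22.3, 27.8 and 11.0 TPM in control, so its gentamicin and control libraries overlapped. The part of shared reads in its spread was not tested. Summed over the 116, the estimated counts per library were 220436 to 244606 with gentamicin and 42528 to 50495 with TCDD at 24 h, against 86240 to 94663 in control. Over the 27 they were 2925 to 3462 and 16907 to 18242, against 5530 to 7118.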

How the data were processed

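RNA was sequenced in 29 libraries of rat renal proximal tubule epithelial cells. Reads were assigned to transcripts by the authors with kallisto 0.43, per the submitters' processing notes, against a transcript set that the sources used here do not name. Per the file headers, each table gives 28420 transcripts with their length, effective length, estimated count and TPM. TPM is the authors' rescaling of each deposited estimated count by effective length, and then by the library's sum of these length-scaled values. Of the deposited estimated counts, 20.0% were more than 1e-06 from a whole number, and all were rounded before testing. Library totals ran from 8243698 to 11446612. Replicates differed by more than sampling noise, with a chi-square per degree of freedom of 2.98 to 28.3 for each pair.

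The members were found from mean TPM with a pseudocount of 1. Fold changes on this scale understate the change of rare transcripts. The members, the lists and the rule were chosen with earlier results of these data known. Identifiers matched 0 reference entries, so planned gene lists were not used here. The named transcripts were the 2 per direction with the largest smaller L among members with at least 10 estimated counts in every gentamicin, TCDD and control library at 24 h.

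Tests used edgeR 4.0.16 in R 4.3.3: filterByExpr at a minimum count of 10 kept 15990 transcripts and 99.95% of counts, libraries were scaled by TMM, and 1 quasi-likelihood model over all 10 groups left 19 residual degrees of freedom. P-values were adjusted by Benjamini-Hochberg over all transcripts tested. The 24 h contrasts of gentamicin, TCDD and acetaminophen with control chose the members; their fitted changes are given as a description and their p-values are not used. Fragment length is the median of length minus effective length. The edgeR fit was checked on simulated data for gentamicin against control at 6 h only. Alternatives were DESeq2 1.42.0, limma 3.58.1 on log2(TPM + 1), other scale factors, no filter, only the compared groups, a replicate term, fragment length as covariate, and each library left out.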

Additional observations from a re-analysis of the deposited data

Results flagged for a closer look

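The median of the gentamicin-high transcripts with TCDD was below control in every library at 24 h and above control in every library at 6 h. The middle library stood at -1.184 (log2 against the control mean of the same time) at 24 h and at 0.134 at 6 h. At 6 h the median over all transcripts in the control range was 0.15 as well, and the 24 h values come from the rule.

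With trichloroethylene the median of the gentamicin-high transcripts was below control in every library at 24 h, with a middle library of -0.128. At 6 h that median was above control in every library, with 0.251, and the control-range median was too, at 0.082 to 0.152. Of the 116 transcripts, 45 had an L above 0 at 24 h and 22 had one below 0 at 6 h. The median of the TCDD-high transcripts with acetaminophen was above control in every library at 24 h, where the rule held them near control, with 0.067. At 6 h it was below control in every library, with -0.282, and the control-range median was too, at -0.106 to -0.069. Of the 27 transcripts, 11 had an L below 0 at 24 h and 10 had one above 0 at 6 h. None of these 3 differences between times was itself tested.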

How the results depend on the processing

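Leaving out 1 library at a time gave 29 to 48 gentamicin-high members called with gentamicin at 6 h (55 with all) and 0 to 2 TCDD-high members (2 with all). With fragment length as a covariate 4 TCDD-high members were called in that comparison and 4 for gentamicin against TCDD at 6 h. The edgeR fit of all libraries without the covariate called 2 in each. Shares of calls over all transcripts were given for that fit only. For gentamicin against TCDD at 6 h, DESeq2 called 3, and so did edgeR without TCDD replicate 3. Only the compared groups gave 5 gentamicin-high calls with trichloroethylene at 6 h, against 0. By the rule on the TMM scale 58 TCDD-high transcripts were found, against 27, and without the acetaminophen limit 235 and 81. Leaving out a 24 h gentamicin, TCDD or control library gave 94 to 141 gentamicin-high and 20 to 39 TCDD-high transcripts. Membership changed more than these counts: 88 to 114 of the 116 and 17 to 27 of the 27 were found again. Acetaminophen libraries were not left out here.

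For the 4 named transcripts, signs turned only in uncalled changes near 0, and the cause was not tested. With limma these were 0.007 for ENSRNOT00000038697 with trichloroethylene at 6 h, 0.088 for ENSRNOT00000001099 with TCDD at 6 h and 0.005 for ENSRNOT00000025711 with gentamicin at 6 h. For ENSRNOT00000021742 they were -0.012 for gentamicin at 6 h, both with DESeq2 and with its scale factors in edgeR, and 0.077 with the fragment-length covariate for trichloroethylene at 24 h over 6 h. With each library left out, ENSRNOT00000021742 ranged over -0.056 to 0.035 with gentamicin at 6 h, -0.074 to 0.243 with TCDD at 6 h, -0.239 to 0.078 for gentamicin against TCDD at 6 h and -0.214 to 0.005 for trichloroethylene at 24 h over 6 h. With TCDD at 6 h, ENSRNOT00000001099 ranged over -0.098 to 0.006 and ENSRNOT00000025711 over -0.064 to 0.236.

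Whether replicate numbers pair the libraries was not settled. In deviations from the group mean, same-numbered libraries of compared groups correlated between -0.04 and 0.20, and differently numbered ones between -0.16 and 0.13. The 24 h libraries of gentamicin, TCDD and acetaminophen were not among them. With the replicate block, 56 gentamicin-high members were called with gentamicin at 6 h and 49 for gentamicin against TCDD at 6 h, against 55 and 52.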
